A study of Mus musculus with 2 samples.

Results

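The potassium channel genes of the mouse lateral hypothalamic area were taken as all gene symbols that start with Kcn and had 20 or more unique molecular identifiers (UMIs, counts of captured mRNA molecules) summed over both libraries of the study. Of 99 such symbols in the gene list, 79 were members: 64 genes of pore-forming subunits, 12 of auxiliary subunits and 3 non-coding transcripts. In all, 15535 genes of 28692 listed reached the same count. The 20 symbols below it included Kcnab3os with 19 UMIs and Kcnj13 with 12, and 5 had no UMI. The members just above it were Kcnk7 with 24 UMIs and Kcnk5 with 25.

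Potassium channels let potassium leave the cell and so hold the resting potential, end the action potential and set how fast a neuron can fire again. Voltage-gated (Kv) channels and the calcium- and sodium-activated channels open during activity. Inward rectifiers (Kir) and the tandem-pore (K2P) channels set the resting potential, and in glia Kir channels take up the potassium that neurons release. Auxiliary subunits (Kv beta, Kv4-interacting, BK beta and KCNE proteins) change the traffic and the gating of pores. Neurons that make hypocretin (Hcrt, also called orexin) sustain wakefulness, and neurons that make melanin-concentrating hormone (Pmch) act in sleep and feeding. Both are found in the lateral hypothalamic area.

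The lateral hypothalamic area of C57BL/6 mice aged 30 days was dissected from brain slices, dissociated and loaded on a 10x Chromium system with v2 chemistry. Of 5 littermates, 3 animals labelled male were pooled into 1 library and 2 labelled female into the other, and no animal carried a stated transgene or received a stated treatment. The sex-linked transcripts went against both labels: Xist had 20641 UMIs in the library labelled male and 30 in the library labelled female, while Ddx3y had 0 and 4524. The libraries are therefore called by their labels only, pairs of values run from the library labelled male to the library labelled female, and n = 2 libraries throughout. The libraries held 3439 and 3793 cell barcodes, 23151801 and 27437142 UMIs and a median of 5718 and 6289 UMIs per barcode, and 18 barcode sequences occurred in both.

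Cells were clustered without the Kcn genes and named from marker genes. Neuron-like cells numbered 2040 and 2267. Among them, inhibitory neurons (1 or more UMIs of Slc32a1, the vesicular GABA transporter, and none of Slc17a6, the vesicular glutamate transporter) numbered 986 and 1109, and excitatory neurons (the reverse) 711 and 783. Neurons with at least 0.3% of all UMIs from Hcrt (Hcrt-high) numbered 83 and 83, those with as much from Pmch (Pmch-high) 85 and 61, and the other excitatory neurons were below it for both and numbered 600 and 686. No cell was high for both. Neurons with UMIs of both transporters numbered 110 and 149 and those with none 233 and 226. The Hcrt-high and Pmch-high gates set no condition on the transporters, so they hold some of these cells. The rest of these cells entered the neuron-like sums only. Levels are given as CPM, the UMIs of a gene per 1000000 UMIs of all cells of a group in a library. A UMI count of this 3′ assay does not grow with transcript length, so CPM values may be compared between genes, apart from differences in capture. For each gate, the UMIs were summed per library and compared with edgeR's quasi-likelihood test with the library as a block. Genes count as called where the p, adjusted by Benjamini-Hochberg over all genes tested, was under 0.05. The p-values rest mostly on a spread between the 2 pooled libraries that was shared over genes, and little on a gene's own spread. They do not measure the spread between animals.

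All 64 pore-forming members held in their coding sequence at least 1 stretch of 5 codons that matched the pattern of the potassium selectivity filter. The pattern was threonine or serine, any residue, glycine, then tyrosine, phenylalanine or leucine, then glycine. It was sought anywhere in the coding sequence, so a match need not lie in the pore. None of the 12 auxiliary subunits held a match. The stretches below, from GENCODE M21 on GRCm38, belong to pore genes of several subfamilies whose levels are described in the results that follow. They are shown because they mark what makes a member a pore. Capitals mark the 5 filter codons, the other bases flank them in the coding sequence, and all read 5′ to 3′ on the coding strand.
Kcna1: tccatgaccACTGTGGGATACGGTgacatg
Kcna5: actatgaccACTGTAGGCTACGGGgacatg
Kcnc2: accatgactACCTTAGGTTACGGGgatatg
Kcnc4: accatgacaACGCTTGGCTATGGGgacatg
Kcnq3: acactggccACCATTGGTTATGGAgacaag
Kcnh4: agcctcaccAGTGTAGGCTTCGGCaacgtg
Kcnt2: acattttctACTGTGGGCTTTGGGgatgtc
Kcnj5: acagaaacaACCATTGGGTATGGCttcaga
Kcnj8: gttcaagtgACCATTGGGTTTGGAgggaga
Kcnj10: tcccagaccACCATCGGCTATGGCttccgc
Kcnk13: gtggtttctACCATAGGGTTTGGGatgaca
Kcnh4, Kcnt2, Kcnj8 and Kcnk13 have a phenylalanine codon (TTC or TTT) as the fourth of the capital codons, and the others shown have a tyrosine codon (TAC or TAT). The filter of Kcna1 starts at codon 372, that of Kcna5 at codon 469 and that of Kcnj10 at codon 128. Kcna5 (chr6:126532551-126535412), Kcna1 (chr6:126640397-126646384) and Kcna6 (chr6:126708329-126740674), all on the minus strand, lie in 1 cluster, with 105 kb between the first pair and 61.9 kb between the second. Kcnj10 (chr1:172341210-172374085, plus strand) lies 11.9 kb from Kcnj9 on the opposite strand, and Kcnj16 and Kcnj2 lie 38.2 kb apart on chromosome 11. Levels of these neighbours are set side by side below.

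Neuron-like cells spent 482 and 497 CPM on the 4 Kv3 genes, 377 and 388 on the 5 Kv1 genes, 265 and 274 on the 10 K2P genes and 256 and 268 on the 5 Kv7 genes. Kcnc1 (Kv3.1), whose channels close fast and permit high firing rates, had the highest level of any subunit with 212 and 227 CPM. Kcnq3, a subunit of the M-current that restrains repeated firing, had 54.4 and 58.8 CPM. Of the axonal Kv1 subunits, Kcna6 had 168 and 181 CPM and Kcna2 135 and 131. Kcnk2 (TREK-1), a leak channel gated by stretch and lipids, had 138 and 140.1 CPM. Kcnc1, Kcna6, Kcnk2 and Kcna2 were also among the 5 highest subunits in inhibitory, excitatory and other excitatory neurons.

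The other neuronal pore subfamilies were lower. Of the A-type channel subunits, Kcnd2 had 87.9 and 94.1 CPM and Kcnd3 73.9 and 70.2, and the delayed rectifier Kcnb2 had 61.1 and 63.7. Kcnma1, the pore of the BK channel that is opened by calcium and voltage, had 73.8 and 80.2 CPM, and the sodium-activated Kcnt1 had 56.8 and 56.3. Of the subunits of the G-protein-gated inward rectifier, Kcnj9 had 58.1 and 61.7 CPM and Kcnj3 47.2 and 47.8. The ERG and EAG subunits Kcnh7, Kcnh2 and Kcnh1 lay between 31.9 and 40.9 CPM. Among silent Kv subunits, which form no channel alone, Kcnf1 led with 29.5 and 32.1 CPM, and the next, Kcns3, had 4.11 and 5.63. Of auxiliary subunits, Kcnip4 had 114 and 98.4 CPM and Kcnab2 102 and 111. The non-coding Kcnq1ot1, an imprinted transcript antisense to Kcnq1, exceeded every subunit with 362 and 426 CPM. Whether counting used strand is not given in the sources used here, so the values of Kcnq1ot1, Kcnmb4os2 and Kcnd3os, and of the overlapping, opposite-strand genes Kcnip1 and Kcnmb1, are uncertain.

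**Figure D1:**
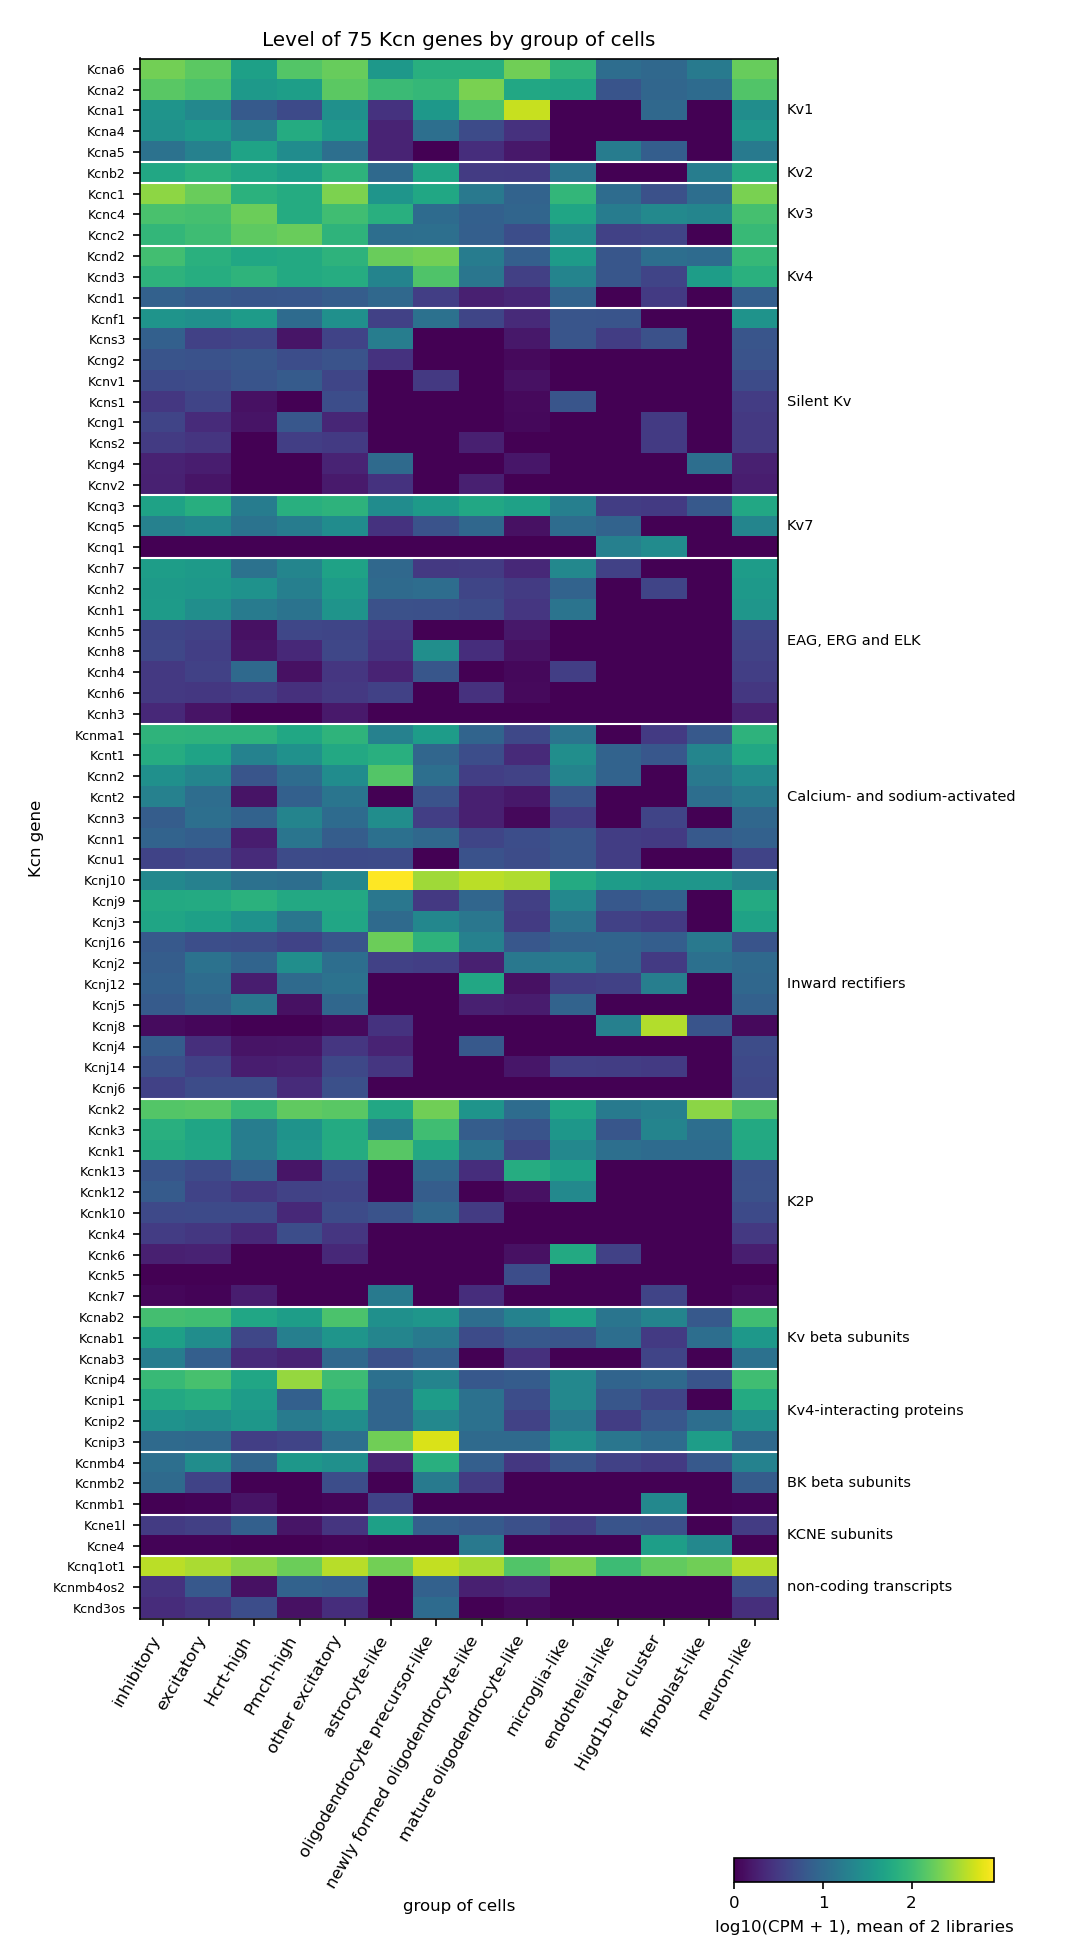
Heat map of 75 of the 79 Kcn genes (rows, by subfamily) in 14 groups of cells (columns). Colour gives log10(CPM + 1), the mean of 2 libraries; Kcnj10 in astrocyte-like cells (764 and 925 CPM) is the brightest cell of the map, and most silent Kv genes are dark in every group.

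The sum of all 79 members was 3187 and 3288 CPM in inhibitory neurons and 2816 and 2957 CPM in excitatory neurons. It was 1896 and 2099 CPM in Hcrt-high neurons, 2238 and 2191 CPM in Pmch-high neurons and 3101 and 3209 CPM in other excitatory neurons, so neither peptide group overlapped the other excitatory neurons. The 3 non-coding transcripts made up 396 and 450 CPM of the sum in inhibitory and 332 and 404 CPM in excitatory neurons. Their part was 247 and 280 CPM in Hcrt-high, 181 and 202 CPM in Pmch-high and 383 and 452 CPM in other excitatory neurons. Hcrt itself took 2.92% and 3.72% of all UMIs of Hcrt-high neurons, and Pmch took 7.36% and 6.96% of those of Pmch-high neurons. The 11 neuron markers summed to 17634 and 16799 CPM in Hcrt-high neurons, 16840 and 17144 CPM in Pmch-high neurons and 24560 and 27563 CPM in other excitatory neurons, and the part of this in the lower Kcn sums was not tested. Peptide neurons were also deeper, with a median of 16101 and 18593 UMIs per Hcrt-high cell, 14237 and 12947 per Pmch-high cell and 7822 and 8027 per other excitatory cell.

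With every cell thinned to 2000 UMIs, a Hcrt-high neuron had on average 3.35 and 3.41 different Kcn genes, a Pmch-high neuron 3.57 and 3.80 and an other excitatory neuron 5.12 and 5.46. Both peptide groups lay below the other excitatory neurons in each library. Without thinning the averages were 14.1 and 16.3 genes in Hcrt-high, 16.6 and 16.3 in Pmch-high and 14.3 and 15.1 in other excitatory neurons. Of these groups 1 Pmch-high cell fell short of 2000 UMIs and was left out.

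**Figure D2:**
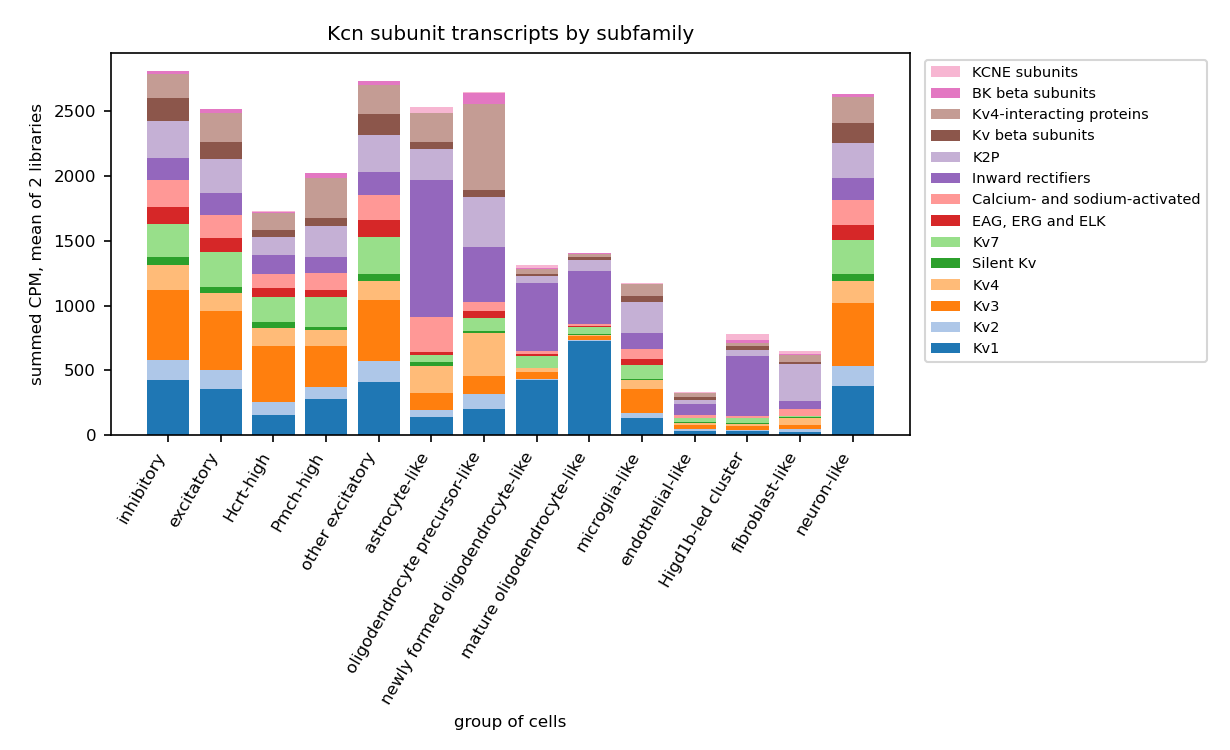
Summed CPM of the subunit genes by subfamily (stacked colours, mean of 2 libraries, non-coding transcripts left out) in 14 groups of cells. Kv3 and Kv1 genes take much of the neuronal bars, inward rectifiers fill most of the Higd1b-led cluster and a large share of the astrocyte-like bar, and Kv1 genes make up the largest share of mature oligodendrocyte-like cells.

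Inhibitory neurons were compared with excitatory neurons because the series sets out to tell populations of the 2 transmitters apart. Of 69 members that passed the filter on low counts, 34 were called, 22 higher and 12 lower in inhibitory neurons, which is 49.3% of those tested beside 22.5% of all 13229 genes tested (10.1% higher and 12.4% lower). The differences were modest: 6 of the higher and 2 of the lower members changed by 2-fold or more, as did 1.04% of all genes tested upwards and 3.12% downwards. The median log2 fold change of tested members was 0.13, beside 0.01 for all genes.

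The higher members were led by low-level genes of several families. Kcnj4 (Kir2.3), a strong inward rectifier, had 6.32 and 5.82 CPM in inhibitory neurons and 2.05 and 0.923 CPM in excitatory neurons (log2 fold change 2.01 ± 0.32, adjusted p = 2.1e-05). Kcnmb2, a beta subunit that makes BK channels inactivate, had 10.4 and 8.15 CPM in inhibitory and 2.63 and 3.16 CPM in excitatory neurons (log2 fold change 1.61 ± 0.24, adjusted p = 7.3e-06). In neither gene did the groups overlap. The silent subunit Kcns3, which joins Kv2 channels, had 6.70 and 7.09 CPM in inhibitory and 1.46 and 3.82 CPM in excitatory neurons (log2 fold change 1.31 ± 0.28, adjusted p = 0.00073). Of the other higher members past 2-fold, Kcnab3 changed by 1.25 ± 0.17 and Kcng1 by 1.19 ± 0.41 on the log2 scale. In the library labelled male alone the log2 fold change of Kcns3 was 2.09 and that of Kcng1 0.54, and in the library labelled female alone they were 0.84 and 2.02.

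Some genes with higher levels, Kcnc1 of the Kv3, Kcnd2 of the Kv4 and Kcnab1 of the Kv beta subfamily, rose by less but with tighter errors. Kcnc1 had 258 and 272 CPM in inhibitory and 174 and 187 CPM in excitatory neurons (log2 fold change 0.51 ± 0.04, adjusted p = 1.7e-10). Kcnd2 had 109.7 and 108 CPM in inhibitory and 66.6 and 76.7 CPM in excitatory neurons (log2 fold change 0.56 ± 0.06, adjusted p = 3.4e-08). Kcnab1, a beta subunit that gives Kv1 channels fast inactivation, had 44.7 and 44.5 CPM in inhibitory and 27.2 and 26.0 CPM in excitatory neurons (log2 fold change 0.70 ± 0.09, adjusted p = 6.8e-07). The groups stood apart in both libraries for each of these 3 genes. Other abundant genes of the same subfamilies were not called: Kcnc4 had 120.1 and 125 CPM in inhibitory and 113 and 115 CPM in excitatory neurons, and Kcnab2 had 108 and 119 CPM in inhibitory and 102 and 108 CPM in excitatory neurons. The sodium-activated channel Kcnt2 was also higher, with 20.1 and 16.8 CPM in inhibitory and 9.65 and 10.6 CPM in excitatory neurons (log2 fold change 0.81 ± 0.15, adjusted p = 0.00012), and so was the K2P gene Kcnk12 (log2 fold change 0.99 ± 0.26, adjusted p = 0.0059). Kcnh1, Kcna1 and Kcnn2 rose by 0.49, 0.44 and 0.40 on the log2 scale.

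Among the 12 lower members Kcnmb4, the beta subunit typical of neuronal BK channels, had 10.4 and 11.3 CPM in inhibitory and 28.2 and 24.8 CPM in excitatory neurons (log2 fold change −1.32 ± 0.13, adjusted p = 4.8e-09). The 2 BK beta genes tested thus moved in opposite directions, while the pore gene Kcnma1 had 76.6 and 80.8 CPM in inhibitory and 73.9 and 79.6 CPM in excitatory neurons and was not called. Kcnmb4os2, which lies antisense to Kcnmb4, was also lower (log2 fold change −1.74 ± 0.31, adjusted p = 7.9e-05), and reads of the pair may not be told apart. Kcnq3 had 43.2 and 52.4 CPM in inhibitory and 66.2 and 69.6 CPM in excitatory neurons (log2 fold change −0.55 ± 0.07, adjusted p = 1.6e-06). The inward rectifier Kcnj2 (Kir2.1) had 4.80 and 7.94 CPM in inhibitory and 10.5 and 12.7 CPM in excitatory neurons (log2 fold change −0.89 ± 0.18, adjusted p = 0.00048). The other lower members were Kcnn3, Kcna5, Kcnj12, Kcnip4, Kcnb2, Kcna4, Kcnc2 and Kcnip1, with log2 fold changes between −0.82 and −0.24.

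The excitatory gate holds many of the peptide neurons as well. With Hcrt-high and Pmch-high neurons left out of both gates, 20 members were called, 13 higher and 7 lower. Kcna5 and Kcnc2 then had log2 fold changes of 0.09 and 0.11 and were not called, and the calls of Kcng1, Kcnh1, Kcna1, Kcnn2, Kcnj2, Kcnn3, Kcnip4 and Kcna4 were also lost. DESeq2 on the same sums called 5 members, Kcnab3, Kcnab1, Kcnc1 and Kcnd2 higher and Kcnmb4 lower. In cells with 1000 or more genes and at most 10% mitochondrial UMIs, Kcnk12, Kcnj12, Kcna4 and Kcnip1 were not called, and without TMM, the scaling of library sizes in the fit, Kcnj12 and Kcnip1 were not called either.

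**Figure D3:**
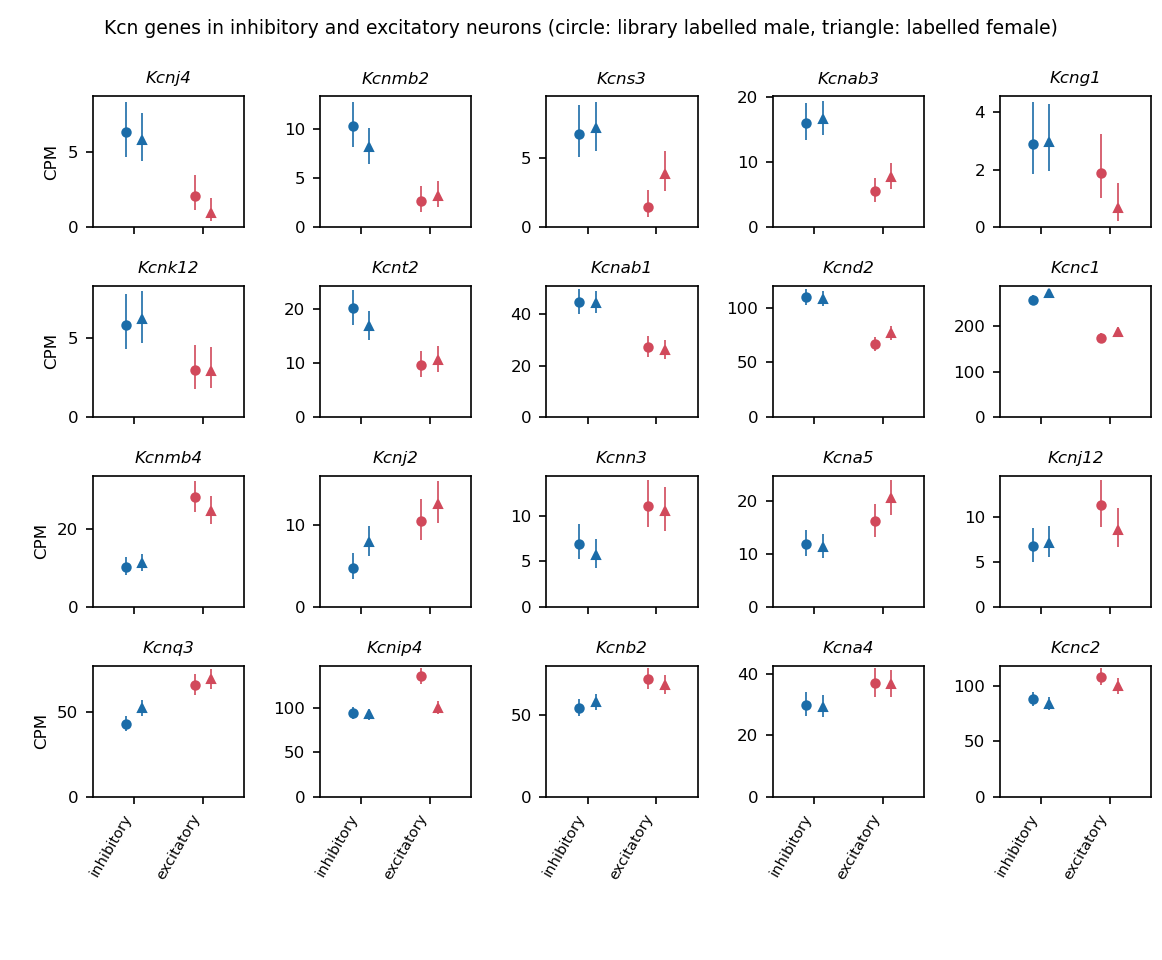
CPM of 20 called subunit genes in inhibitory and excitatory neurons, 1 panel a gene; points are libraries (circle labelled male, triangle labelled female) and bars are exact Poisson 95% intervals, which cover counting error only. The upper 10 panels are higher and the lower 10 lower in inhibitory neurons, and the points of the groups do not cross in any panel. The genes were picked as called, with the same direction in both libraries and the largest changes, which favours such separation.

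By subfamily, and beside 22.5% of all genes called, all 5 Kv1 genes were called (3 higher, 2 lower), as were 4 of 7 calcium- and sodium-activated genes (3 higher, 1 lower) and 2 of 3 Kv beta genes (both higher). Of 7 EAG, ERG and ELK genes tested 1 was called, and of 10 inward rectifiers 3 were, shares on either side of that of all genes. Genes that work with these channels were read from 3 further lists. Of 12 auxiliary partners tested 4 were higher and 2 lower, of 4 HCN channels 1 was higher, which is near the share of all genes, and of 10 potassium pumps and chloride cotransporters 5 were higher and 3 lower. Hcn2, a channel opened by hyperpolarization that carries a depolarizing current, had 111 and 113 CPM in inhibitory and 74.4 and 73.3 CPM in excitatory neurons (log2 fold change 0.56 ± 0.06, adjusted p = 1.3e-08). The BK gamma subunit Lrrc38 was higher (log2 fold change 1.93 ± 0.57, adjusted p = 0.014, with 1.32 in the library labelled male alone and 2.37 in the library labelled female alone) and Abcc8, the sulfonylurea receptor of ATP-sensitive channels, lower (log2 fold change −0.45 ± 0.14, adjusted p = 0.023), and neither call held without the peptide neurons.

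Hcrt-high neurons had lower levels of most called members. Of 60 members tested against the other excitatory neurons 43 were called, 12 higher and 31 lower, or 71.7% beside 40.7% of all 11828 genes tested (21.2% higher and 19.5% lower). By 2-fold or more 7 were higher (6.80% of all genes tested) and 21 lower (10.2%). The median log2 fold change of tested members was −0.65, beside −0.01 for all genes. The other 19 members did not pass the filter on low counts.

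Of the genes that were higher, the Kv1 subunit Kcna5 (Kv1.5) had the smallest adjusted p, with 47.4 and 50.2 CPM in Hcrt-high neurons and 8.40 and 12.9 CPM in other excitatory neurons (log2 fold change 2.42 ± 0.21, adjusted p = 1.3e-17). It was the 1 Kv1 gene that rose, since all 4 others tested fell. The Kv3 subunit Kcnc2 had 149 and 165 CPM in Hcrt-high and 82.6 and 76.6 CPM in other excitatory neurons (log2 fold change 1.24 ± 0.11, adjusted p = 4.1e-16). Kcnc4 (Kv3.4), a Kv3 subunit with fast inactivation, had 167 and 207 CPM in Hcrt-high and 110.3 and 102 CPM in other excitatory neurons (log2 fold change 1.08 ± 0.11, adjusted p = 7.6e-14). For these 3 genes both libraries of Hcrt-high neurons lay above both of the others. Kcnc4 was the highest subunit of Hcrt-high neurons, a place held by Kcnc1 in the other excitatory neurons.

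The further higher members were less abundant. The ELK subunit Kcnh4 had 5.26 and 12.5 CPM, from 6 and 17 UMIs, in Hcrt-high neurons and 1.85 and 1.90 CPM in other excitatory neurons (log2 fold change 2.51 ± 0.52, adjusted p = 3.9e-05). Kcnj5 (Kir3.4), a G-protein-gated inward rectifier, had 14.0 and 11.8 CPM in Hcrt-high and 9.22 and 7.59 CPM in other excitatory neurons (log2 fold change 0.87 ± 0.33, adjusted p = 0.03). Silent Kcnf1, which modifies Kv2 channels, had 36.0 and 42.1 CPM in Hcrt-high and 29.5 and 27.6 CPM in other excitatory neurons (log2 fold change 0.71 ± 0.18, adjusted p = 0.00099). The groups did not overlap in any of them. The KCNE subunit Kcne1l rose by 2.09 ± 0.57, the K2P gene Kcnk13 by 1.37 ± 0.49 and Kcnd3 by 0.58 ± 0.13 on the log2 scale, while Kcnip2 (0.60) and Kcnj9 (0.57) were called although their groups overlapped. The antisense transcript Kcnd3os had 4 and 6 UMIs in Hcrt-high and 7 and 8 UMIs in other excitatory neurons (log2 fold change 1.73 ± 0.71, adjusted p = 0.041). The calls of Kcnh4, Kcnk13 and, among the lower members, Kcnab3 did not hold in cells with 1000 or more genes and at most 10% mitochondrial UMIs, and those of Kcnj5, Kcnip2 and Kcnd3os did not hold without TMM scaling. The log2 fold change was 1.80 for Kcnh4 and 0.38 for Kcnk13 in the library labelled male alone, and 2.96 and 2.17 in the library labelled female alone.

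Among the 31 lower members, all 3 Kv beta genes fell. Kcnab1 had 3.51 and 2.95 CPM in Hcrt-high and 32.6 and 32.1 CPM in other excitatory neurons (log2 fold change −3.07 ± 0.36, adjusted p = 8.8e-12). Kcnab3 had 3 and 0 UMIs in Hcrt-high and 36 and 58 UMIs in other excitatory neurons, a CPM lower by 7.32-fold, exact 95% interval 2.43 to 36.1, adjusted p = 0.0012. Their partners in axonal Kv1 channels fell as well. Kcna2 had 44.7 and 30.3 CPM in Hcrt-high and 163 and 147 CPM in other excitatory neurons (log2 fold change −1.81 ± 0.15, adjusted p = 2.3e-18), and Kcna1 had 7.02 and 4.43 CPM in Hcrt-high and 28.7 and 28.1 CPM in other excitatory neurons (log2 fold change −2.08 ± 0.32, adjusted p = 6.3e-08). Kcna6 had 39.5 and 51.6 CPM in Hcrt-high and 167 and 188 CPM in other excitatory neurons (log2 fold change −1.71 ± 0.14, adjusted p = 2.1e-18). No library of Hcrt-high neurons reached the other excitatory neurons in any of these genes.

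Kcnq3 had 12.3 and 19.9 CPM in Hcrt-high and 73.0 and 79.1 CPM in other excitatory neurons (log2 fold change −1.97 ± 0.20, adjusted p = 2.9e-14). Within Kv3, Kcnc1 had 69.3 and 77.5 CPM in Hcrt-high and 219 and 226 CPM in other excitatory neurons (log2 fold change −1.34 ± 0.13, adjusted p = 1.1e-15). Kv3 genes thus moved in both directions, with Kcnc2 and Kcnc4 higher and Kcnc1 lower.

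Several members were almost absent from Hcrt-high neurons. Kcnmb2 had 0 and 0 UMIs in Hcrt-high and 18 and 24 UMIs in other excitatory neurons, at least 3.27-fold lower with 3 counts over both Hcrt-high sums taken as the floor. Kcnt2 had 1 and 0 UMIs in Hcrt-high and 60 and 75 UMIs in other excitatory neurons, a CPM lower by 31.6-fold, exact 95% interval 5.57 to 1255, adjusted p = 4.5e-07. Kcnj12 (Kir2.2) had 0 and 2 UMIs in Hcrt-high and 66 and 59 UMIs in other excitatory neurons (14.6-fold, exact 95% interval 3.96 to 122, adjusted p = 8.4e-06). These intervals cover counting error only. Of the calcium-activated SK genes Kcnn1 and Kcnn2 were lower. Kcnn1 had 0 and 2 UMIs in Hcrt-high and 34 and 33 UMIs in other excitatory neurons (7.83-fold, exact 95% interval 2.08 to 66.0, adjusted p = 0.0055), and Kcnn2 fell to 6.14 and 3.69 CPM in Hcrt-high neurons, against 23.6 and 27.4 CPM in other excitatory neurons (log2 fold change −2.16 ± 0.34, adjusted p = 1.6e-07). Kcnn3 had 9.65 and 5.16 CPM in Hcrt-high and 7.99 and 11.0 CPM in other excitatory neurons and was not called. Silent Kcns1 (0 and 1 UMIs in Hcrt-high, 17 and 25 in other excitatory neurons), Kcnmb4os2 (0 and 1 UMIs in Hcrt-high and 34 and 36 UMIs in other excitatory neurons), Kcnip3 (−1.90 on the log2 scale, with −1.28 in the library labelled male alone and −2.25 in the library labelled female alone) and Kcnh7 (−1.76) were also lower.

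Among the partner lists, 2 auxiliary partners were higher and 6 lower of 11 tested, 1 HCN channel was higher and 1 lower of 3, and 3 potassium transport genes were higher and 2 lower of 9, beside 40.7% of all genes called. The strongest was Dpp10, an auxiliary subunit that speeds Kv4 channels, with 13.2 and 35.4 CPM in Hcrt-high and 156 and 144 CPM in other excitatory neurons (log2 fold change −2.32 ± 0.18, adjusted p = 1.6e-20). Its log2 fold change was −3.27 in the library labelled male alone and −1.76 in the library labelled female alone. Cntnap1, the paranodal protein Caspr, changed by −1.72 ± 0.17, and Lgi1, a secreted protein that binds Kv1 complexes, by −1.31 ± 0.17 on the log2 scale. DESeq2 called 19 members, and 20 of 37 members tested were called with cells thinned to 3000 UMIs.

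Pmch-high neurons were compared with the same other excitatory neurons, so this comparison and the one before it share that group. Of 55 members tested 36 were called, 10 higher and 26 lower, or 65.5% beside 36.7% of all 11794 genes tested (19.4% higher and 17.2% lower). By 2-fold or more 8 were higher (6.22% of all genes tested) and 15 lower (7.52%), and the median log2 fold change was −0.53, beside −0.03 for all genes.

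The main gain was in Kcnip4, a calcium-binding protein that binds Kv4 channels and changes their inactivation. It had 295 and 283 CPM in Pmch-high and 113 and 90.2 CPM in other excitatory neurons (log2 fold change 1.77 ± 0.09, adjusted p = 2.2e-17) and was the highest subunit of Pmch-high neurons. Its relative Kcnip1 had 6.28 and 7.54 CPM in Pmch-high and 89.0 and 70.2 CPM in other excitatory neurons (log2 fold change −3.30 ± 0.24, adjusted p = 2e-13), and Kcnip3 was lower too (log2 fold change −1.50 ± 0.48, adjusted p = 0.013). The Kv4 pore genes they serve were not called: Kcnd2 had 61.4 and 57.5 CPM in Pmch-high and 70.1 and 83.6 CPM in other excitatory neurons, and Kcnd3 had 64.9 and 52.7 CPM in Pmch-high and 62.5 and 64.5 CPM in other excitatory neurons.

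Pore genes of several families rose. Kcnc2 had 186 and 171 CPM in Pmch-high and 82.6 and 76.6 CPM in other excitatory neurons (log2 fold change 1.43 ± 0.10, adjusted p = 6.4e-14). The A-type Kv1 subunit Kcna4 had 62.1 and 63.1 CPM in Pmch-high and 33.6 and 37.6 CPM in other excitatory neurons (log2 fold change 1.08 ± 0.16, adjusted p = 1.1e-06), and Kcna5 had 22.3 and 29.2 CPM in Pmch-high and 8.40 and 12.9 CPM in other excitatory neurons (log2 fold change 1.54 ± 0.26, adjusted p = 9.1e-06). Kcnj2, which conducts near the resting potential, had 24.4 and 30.1 CPM in Pmch-high and 9.43 and 11.2 CPM in other excitatory neurons (log2 fold change 1.66 ± 0.25, adjusted p = 2e-06). The libraries of the groups were separate for all 4. The SK genes Kcnn3 (log2 fold change 1.36 ± 0.30, adjusted p = 0.00041) and Kcnn1 (log2 fold change 1.26 ± 0.36, adjusted p = 0.0055) also rose. Silent Kcng1 rose on few counts, 7 and 6 UMIs in Pmch-high and 8 and 3 in other excitatory neurons (log2 fold change 2.51 ± 0.69, adjusted p = 0.0043). Kcng1 had a log2 fold change of 1.86 in the library labelled male alone and 3.60 in the library labelled female alone. Kcnk2 had 165 and 160.1 CPM in Pmch-high and 143 and 156 CPM in other excitatory neurons and was called (log2 fold change 0.39 ± 0.10, adjusted p = 0.002), and Kcnmb4 was called (0.54) although its groups overlapped. Without TMM scaling neither was called, with log2 fold changes of 0.12 for Kcnk2 and 0.27 for Kcnmb4, and Kcnmb4 was not called with DESeq2 size factors either.

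Of the lower genes, 2 were G-protein-gated inward rectifiers. Kcnj3 (Kir3.1) had 11.2 and 15.1 CPM in Pmch-high and 52.1 and 55.2 CPM in other excitatory neurons (log2 fold change −1.79 ± 0.23, adjusted p = 6e-08), and Kcnj5 had 1 and 0 UMIs in Pmch-high and 45 and 44 UMIs in other excitatory neurons, a CPM lower by 20.8-fold, exact 95% interval 3.64 to 831, adjusted p = 0.00028. Kcnj9 (Kir3.3), of the same subgroup, had 62.8 and 50.9 CPM in Pmch-high and 53.9 and 62.4 CPM in other excitatory neurons and was not called. Kcnc1 had 67.7 and 57.5 CPM in Pmch-high and 219 and 226 CPM in other excitatory neurons (log2 fold change −1.55 ± 0.12, adjusted p = 7.4e-13). Kcna2 had 49.5 and 36.7 CPM in Pmch-high and 163 and 147 CPM in other excitatory neurons (log2 fold change −1.56 ± 0.13, adjusted p = 9.7e-12). Kcna1 had 10 and 0 UMIs in Pmch-high and 140 and 163 UMIs in other excitatory neurons (log2 fold change −2.57 ± 0.40, adjusted p = 2.9e-06), so its Pmch-high count came from the library labelled male alone. Kcnab3 had 0 and 2 UMIs in Pmch-high and 36 and 58 in other excitatory neurons (11.0-fold, exact 95% interval 2.96 to 92.0, adjusted p = 0.0012). Kcnmb2 and Kcns1 had no UMI in Pmch-high neurons, each at least 3.27-fold lower by the same floor. Kcnf1, Kcnab2, Kcnh1 and Kcnn2 fell by 1.31, 1.29, 1.14 and 1.07 on the log2 scale.

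Of the partner lists, 1 auxiliary partner was higher and 3 lower of 11 tested, 1 HCN channel was higher and 2 lower of 3, and 4 potassium transport genes were higher and 3 lower of 9, beside 36.7% of all genes called. The share of auxiliary partners called was 36.4%, near that of all genes. Atp1b3, a beta subunit of the sodium-potassium pump, had 306 and 323 CPM in Pmch-high and 105 and 109 CPM in other excitatory neurons (log2 fold change 1.82 ± 0.09, adjusted p = 3e-18). Slc12a5 (KCC2), which exports potassium with chloride, had 189.7 and 221 CPM in Pmch-high and 525 and 490 CPM in other excitatory neurons (log2 fold change −1.05 ± 0.09, adjusted p = 7.7e-12), and Cntnap1 changed by −1.06 ± 0.14. Pmch-high neurons also carried 552 and 528 CPM of Gad1, an enzyme of GABA synthesis, beside 103 and 101 CPM of Slc17a6. DESeq2 called 12 members, and 10 of 39 members tested were called with cells thinned to 3000 UMIs.

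**Figure D4:**
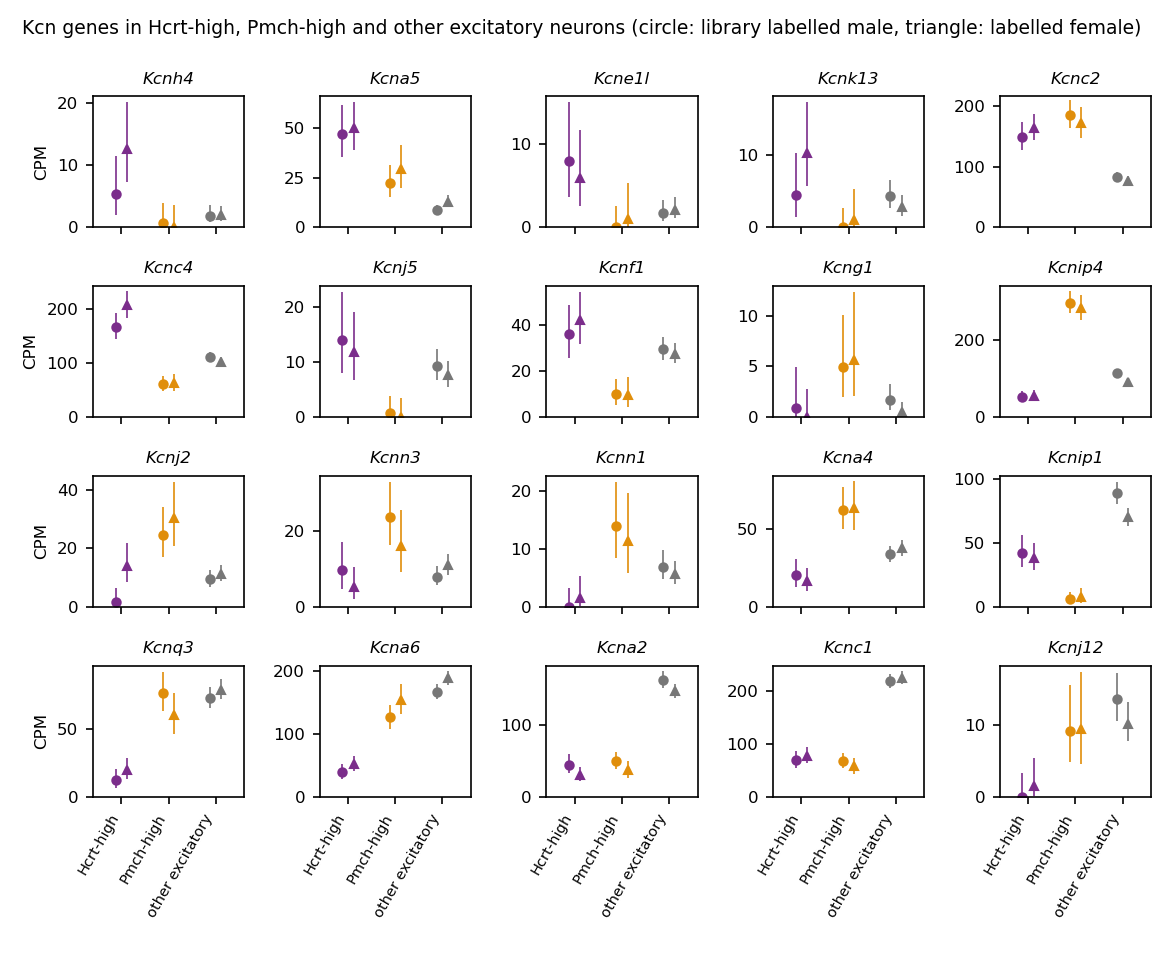
CPM of 20 Kcn genes in Hcrt-high, Pmch-high and other excitatory neurons, 1 panel a gene; points are libraries (circle labelled male, triangle labelled female) and bars exact Poisson 95% intervals for counting error only. Kcnc2 and Kcna5 lie above the other excitatory neurons in both peptide groups, Kcnc4 in Hcrt-high neurons and Kcnip4 in Pmch-high neurons only among the values plotted.

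A direct comparison of the peptide neurons tested 40 members and called 25, 11 higher and 14 lower in Hcrt-high neurons, or 62.5% beside 34.0% of all 9683 genes tested (16.2% higher and 17.8% lower). By 2-fold or more 6 were higher (6.83% of all genes tested) and 11 lower (8.57%), with a median log2 fold change of −0.20 beside 0.01 for all genes.

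Among genes higher in Hcrt-high neurons were the G-protein-gated inward rectifiers Kcnj5 and Kcnj3, Kcnc4 and 2 Kv4-interacting genes. Kcnj5 had 16 and 16 UMIs in Hcrt-high and 1 and 0 UMIs in Pmch-high neurons, a CPM higher by 32.0-fold, exact 95% interval 5.35 to 1303, adjusted p = 7.6e-07. Kcnj3 had 29.8 and 29.5 CPM in Hcrt-high and 11.2 and 15.1 CPM in Pmch-high neurons (log2 fold change 1.17 ± 0.31, adjusted p = 0.00071). Kcnc4 had 167 and 207 CPM in Hcrt-high and 60.7 and 62.2 CPM in Pmch-high neurons (log2 fold change 1.58 ± 0.14, adjusted p = 2.7e-26). In all 3 the groups were apart. Kcnj9, a further G-protein-gated inward rectifier, had 56.1 and 88.5 CPM in Hcrt-high and 62.8 and 50.9 CPM in Pmch-high neurons, which overlapped, and was not called. Kcnip1 had 42.1 and 38.4 CPM in Hcrt-high and 6.28 and 7.54 CPM in Pmch-high neurons (log2 fold change 2.53 ± 0.33, adjusted p = 2.8e-13), and Kcnf1 had 36.0 and 42.1 CPM in Hcrt-high and 9.76 and 9.42 CPM in Pmch-high neurons (log2 fold change 1.98 ± 0.30, adjusted p = 1e-09). Kcnip2, Kcna5, Kcnh2, Kcnma1, Kcnd3 and the non-coding Kcnq1ot1 rose by 1.14, 0.91, 0.80, 0.51, 0.41 and 0.48 on the log2 scale.

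Lower in Hcrt-high neurons was first of all Kcnip4, with 52.6 and 54.6 CPM in Hcrt-high and 295 and 283 CPM in Pmch-high neurons (log2 fold change −2.44 ± 0.14, adjusted p = 2.7e-64). Kcnq3 had 12.3 and 19.9 CPM in Hcrt-high and 76.7 and 60.3 CPM in Pmch-high neurons (log2 fold change −2.08 ± 0.23, adjusted p = 2e-18). Kcna6 had 39.5 and 51.6 CPM in Hcrt-high and 126 and 154 CPM in Pmch-high neurons (log2 fold change −1.63 ± 0.16, adjusted p = 6.5e-23). These 3 genes differed in both libraries without overlap, and so did Kcna4 (log2 fold change −1.80 ± 0.23, adjusted p = 7.1e-14). Kcnj2 had 1.75 and 14.0 CPM in Hcrt-high and 24.4 and 30.1 CPM in Pmch-high neurons (log2 fold change −1.78 ± 0.35, adjusted p = 3.3e-06), and its log2 fold change was −3.52 in the library labelled male alone and −1.10 in the library labelled female alone. Among SK genes Kcnn1 had 0 and 2 UMIs in Hcrt-high and 20 and 12 UMIs in Pmch-high neurons, a CPM lower by 16.0-fold, exact 95% interval 4.08 to 138, adjusted p = 5.5e-06, and Kcnn3 fell by 1.43 on the log2 scale. Kcnj12 had 0 and 2 UMIs in Hcrt-high and 13 and 10 UMIs in Pmch-high neurons (11.5-fold, exact 95% interval 2.84 to 101, adjusted p = 0.00039). Kcnab1 fell by 2.40, Kcnmb4 by 2.09 and Kcnh7 by 0.84. All 3 K2P genes tested fell, Kcnk1 by 1.02, Kcnk3 by 0.92 and Kcnk2 by 0.82. In the library labelled male alone the log2 fold change was −1.83 for Kcnk1, −2.57 for Kcnmb4 and −3.04 for the partner gene Dpp10, and in the library labelled female alone it was −0.52, −1.50 and −1.21. Of the partner lists 3 auxiliary partners were higher and 5 lower of 11, led by Dpp10 (log2 fold change −1.96 ± 0.19, adjusted p = 5e-23), Abcc8 (log2 fold change 1.14 ± 0.31, adjusted p = 0.0014) and Lgi1 (log2 fold change −1.04 ± 0.21, adjusted p = 3.8e-06). Of 3 HCN channels 1 was higher, and of 9 potassium transport genes 2 were higher and 3 lower, beside 34.0% of all genes called. DESeq2 called 6 members, and the calls of Kcnj3, Kcnh2, Kcnma1, Kcnd3 and Kcnh7 were lost in cells with 1000 or more genes and at most 10% mitochondrial UMIs, that of Kcnh7 also without TMM scaling.

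Glial and vascular cells were described against all neuron-like cells within each library, with no test, because the groups come from clustering. A gene counted as higher or lower when it differed by 4-fold or more in the same direction in both libraries with 20 or more UMIs in the higher group. A group with 0 UMIs in a library was set to 3 counts there. Fewer genes can therefore pass in shallow groups, and the counts of members may not be compared between groups. Mature oligodendrocyte-like cells held 2718130 and 2954049 UMIs in all, and microglia-like cells 198101 and 203017. Astrocyte-like cells numbered 119 and 185, oligodendrocyte precursor-like 81 and 95, newly formed oligodendrocyte-like 74 and 104, mature oligodendrocyte-like 609 and 595, microglia-like 72 and 41, endothelial-like 66 and 56 and fibroblast-like 20 and 29. A further vascular cluster of 38 and 52 cells, led by Higd1b, stayed unnamed because it held 14380 and 12602 CPM of endothelial beside 8056 and 7283 CPM of mural markers, with Acta2 and Tagln at 0. It also held 18 and 9250.1 CPM of the 5 erythrocyte markers.

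Kcnj10 (Kir4.1), the channel by which glia take up potassium, was the clearest glial member. It had 764 and 925 CPM in astrocyte-like cells, 351 and 286 in oligodendrocyte precursor-like, 413 and 436 in newly formed and 375 and 390 in mature oligodendrocyte-like cells, and 18.5 and 23.1 CPM in neuron-like cells. The astrocyte-like level was 41.2-fold and 40.0-fold that of neuron-like cells, and the mature oligodendrocyte-like level 20.2-fold and 16.9-fold. The 10 astrocyte markers summed to 17847 and 18738 CPM in astrocyte-like cells and 519 and 548 CPM in neuron-like cells, and the part of free RNA in the neuronal level of Kcnj10 was not tested. Its neighbour Kcnj9 had 13.6 and 13.5 CPM in astrocyte-like and 58.1 and 61.7 CPM in neuron-like cells. Kcnj16 (Kir5.1), which pairs with Kcnj10, had 181 and 193 CPM in astrocyte-like, 80.3 and 74.6 in oligodendrocyte precursor-like and 5.89 and 4.74 in mature oligodendrocyte-like cells, and 5.50 and 3.95 CPM in neuron-like cells. Its neighbour Kcnj2 had 3.41 and 1.93 CPM in astrocyte-like and 7.76 and 10.4 CPM in neuron-like cells.

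Astrocyte-like cells had 5 members higher (background 5.03%) and 13 lower (background 4.25%) of the 79. Besides the Kir genes these were Kcnip3, an interacting protein of Kv4 channels that also acts as a transcription repressor, Kcne1l and Kcnn2. Kcnip3 had 205 and 191 CPM in astrocyte-like, 557 and 609 in oligodendrocyte precursor-like and 9.50 and 8.59 CPM in neuron-like cells. The precursor level was 58.7-fold and 70.9-fold that of neurons. Kcne1l had 37.5 and 52.0 CPM in astrocyte-like and 2.201 and 2.37 CPM in neuron-like cells, and the SK gene Kcnn2 had 123 and 150.3 CPM in astrocyte-like and 23.1 and 25.9 CPM in neuron-like cells. The Kv4 pore Kcnd2 had 171 and 187 CPM in astrocyte-like, 216 and 182 in oligodendrocyte precursor-like and 87.9 and 94.1 CPM in neuron-like cells, under the 4-fold limit. Oligodendrocyte precursor-like cells had 3 members higher (background 2.88%), Kcnip3, Kcnj10 and Kcnj16, and 3 lower (background 2.09%).

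The oligodendrocyte stages differed in their Kv1 genes. Kcna2 had 95.4 and 78.7 CPM in oligodendrocyte precursor-like, 199 and 239.9 in newly formed and 50.4 and 60.6 in mature oligodendrocyte-like cells, against 135 and 131 CPM in neuron-like cells. Kcna1 had 45.2 and 24.9 CPM in oligodendrocyte precursor-like, 130 and 129 in newly formed and 446 and 508 in mature oligodendrocyte-like cells, against 25.3 and 27.1 CPM in neuron-like cells, so the mature level was 17.7-fold and 18.7-fold that of neurons. Kcna2 was thus highest in newly formed and Kcna1 in mature oligodendrocyte-like cells, in both libraries. Kcna5, 105 kb from Kcna1, had 1.10 and 0 CPM in mature oligodendrocyte-like cells, while Kcna6, the neighbour of Kcna1 on the other side, had 195 and 193 CPM there and 168 and 181 CPM in neuron-like cells. Kcnj12 was highest in the newly formed stage with 49.1 and 63.6 CPM, against 0 and 0 in precursor-like, 0 and 0.677 in mature and 8.74 and 8.25 CPM in neuron-like cells. Kcnk13 (THIK-1), a leak channel, had 65.9 and 60.6 CPM in mature oligodendrocyte-like and 4.11 and 4.35 CPM in neuron-like cells, and 8 and 10 UMIs or 40.4 and 49.3 CPM in microglia-like cells, under the minimum of 20.

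Mature oligodendrocyte-like cells had 4 members higher (background 5.12%), Kcnj10, Kcna1, Kcnk13 and Kcnk5, and 42 lower (background 17.4%). Kcnk5 (TASK-2) had 14 and 8 UMIs in mature oligodendrocyte-like and none in neuron-like cells, at least 29.7-fold and 18.3-fold higher against a floor of 3 counts per library. Among the lower genes Kcnc1 had 7.73 and 7.45 CPM in mature oligodendrocyte-like and 212 and 227 CPM in neuron-like cells. Newly formed oligodendrocyte-like cells had 3 members higher (background 4.29%), Kcnj10, Kcna1 and Kcnj12, and 21 lower (background 6.62%). At 2000 UMIs a mature oligodendrocyte-like cell had on average 2.26 and 2.36 different Kcn genes, an astrocyte-like cell 4.02 and 4.05 and a neuron-like cell 5.08 and 5.32.

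Microglia-like cells had 1 member higher (background 2.81%), Kcnk6 (TWIK-2), with 9 and 15 UMIs or 45.4 and 73.9 CPM, against 0.753 and 0.790 CPM in neuron-like cells, and 2 lower (background 0.605%). Neuronal genes were present there as well, such as Kcnc1 with 40.4 and 133 CPM. The 11 neuron markers summed to 4064 and 11782 CPM in these cells and the 9 microglia markers to 28506 and 10176 CPM, so neuron markers exceeded microglia markers in the library labelled female, and the part of this in the Kcn levels was not tested.

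In the Higd1b-led cluster 1 member was higher (background 5.36%) and 17 lower (background 6.16%). Kcnj8 (Kir6.1), the pore of the ATP-sensitive channel of blood vessel walls, had 75 and 77 UMIs or 449 and 335 CPM there and 0 and 7 UMIs in neuron-like cells, which is at least 2586-fold higher where neurons had none, with 3 counts as the floor, and 969.6-fold higher in the other library. The part of the erythrocyte and endothelial RNA of this cluster in its Kcn levels was not tested. Endothelial-like cells had 3 and 4 UMIs of it. The 8 and 22 mural-like cells, too few for the 4-fold rule, had 1 and 3 UMIs of Kcnj8 and 2 and 9 UMIs of Kcnmb1, the BK beta subunit of smooth muscle. Endothelial-like cells had no member higher (background 4.79%) and 17 lower (background 6.69%). Fibroblast-like cells had none higher (background 2.47%) and 6 lower (background 3.64%). All 79 members together had only 75 and 95 UMIs in endothelial-like and 65 and 102 UMIs in fibroblast-like cells. The highest endothelial-like subunit, Kcnj10 with 33.5 and 48.2 CPM, fell short of the UMI minimum of the 4-fold rule. The rule could therefore not show whether any subunit was higher in endothelial-like cells. In fibroblast-like cells Kcnk2 had 177 and 350.3 CPM, beside 138 and 140.1 CPM in neuron-like cells. In cells with 1000 or more genes and at most 10% mitochondrial UMIs, 11 of the 17 higher pairs of gene and class were still past the limit. Kcne1l, Kcnj16 and Kcnn2 in astrocyte-like, Kcnj16 in precursor-like, Kcnk5 in mature oligodendrocyte-like and Kcnk6 in microglia-like cells were not.

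**Figure D5:**
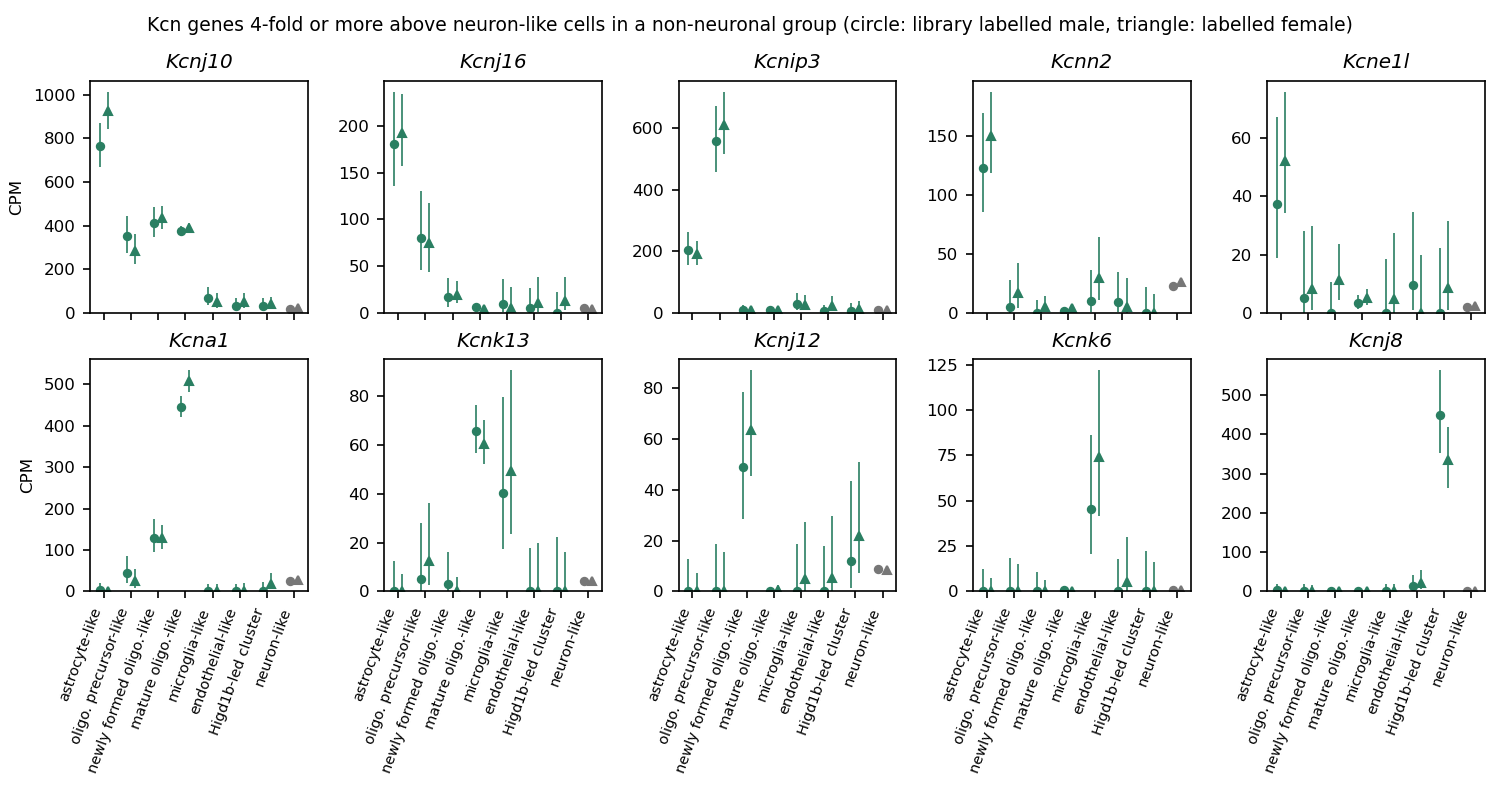
CPM of 10 Kcn genes in 7 non-neuronal groups and in neuron-like cells, 1 panel a gene; points are libraries (circle labelled male, triangle labelled female) and bars exact Poisson 95% intervals for counting error only. Kcnj10 is high in astrocyte-like and all oligodendrocyte-lineage cells, Kcna1 in mature oligodendrocyte-like cells and Kcnj8 in the Higd1b-led cluster.

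The 2 libraries were also set side by side. Of 61 members with 100 or more UMIs in neuron-like cells, 2 were 1.5-fold or more apart (background 2.31%), with no test, since each library is a single pool. Kcnk10 (TREK-2) had 2.72 CPM in the library labelled male and 4.35 CPM in the library labelled female, a ratio of 0.626 (exact 95% interval 0.430 to 0.902). Kcnj6 (Kir3.2), a G-protein-gated inward rectifier, had 2.55 CPM in the library labelled male and 3.90 CPM in the library labelled female, a ratio of 0.653 (0.441 to 0.956). Both are low-level genes and the intervals cover counting error only. Of 8 members with as many UMIs in mature oligodendrocyte-like cells, none was 1.5-fold apart (background 2.57%).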

How the data were processed

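The authors deposited 1 matrix of raw UMI counts for each of 2 libraries, with genes in rows and cell barcodes in columns. Cell Ranger 2.2.0 and the GRCm38 (mm10) genome were used, per the submitters' processing notes. How cells were told from empty barcodes, which annotation release was used and whether strand was used is information not given in the sources used here. All members, gene lists, gates and tests were chosen with earlier results of these data known.

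Barcodes with at least 500 genes and at most 20% mitochondrial UMIs were kept (163 left out of each library), and the 90 and 110 barcodes with the highest Scrublet doublet scores were removed, 0.8% per 1000 barcodes. At its own threshold Scrublet marked 56 and 11. This left 3186 and 3520 cells. Cells were clustered with scanpy 1.11.5 and igraph 0.11.9 (Python 3.11.15) on 2000 variable genes without mitochondrial, sex-linked and Kcn genes, with 30 principal components, 15 neighbours and Leiden resolution 1. Clusters were named "-like" from marker lists where at least 3 markers were found in 25% of cells. They were left unnamed where another lineage's markers were found in 60%. The same held where 3 or more of another lineage's markers, or more than of their own, were among the 10 leading genes. A shallow cluster with no leading marker of its own was to stay unnamed as well. The vascular clusters were clustered once more, a step chosen after seeing the data. A further 59 and 74 cells stayed unnamed, and they entered no comparison.

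UMI counts of each gate were summed per library and tested with edgeR 4.0.16 (R 4.3.3), with filterByExpr, TMM scaling, the quasi-likelihood test and the library as a block on 4 sums, which leaves 1 residual degree of freedom. The sums of the same library come from the same animals, so the library pairs them. The ± of a log2 fold change is its standard error from the edgeR fit. The spread shared over genes entered with 27.07, 82.76 and 32.68 prior degrees of freedom in the inhibitory, Hcrt-high and Pmch-high comparisons. In the Hcrt-high against Pmch-high comparison this prior was infinite, so a gene's own spread had no weight. A p or ± there does not show how far the libraries differed in that gene. Alternatives were DESeq2 1.42.0, other scalings, filters, gates and depths. In simulated counts with 50 genes changed at each size, the fit recovered 88%, 62%, 42% and 48% of 1.5-fold and 100%, 76%, 86% and 76% of 2-fold changes in the inhibitory, Hcrt-high, Pmch-high and Hcrt-high against Pmch-high comparisons, and all 4-fold ones. The changed genes were drawn above the lower quartile of mean CPM, with 1 spread for all genes and no library effect. These shares may therefore not hold for genes with few UMIs or that differ between libraries. Genes named are called members with 1 direction in both libraries, up to 15 each way by size of change. Also named are the 3 most abundant members of each subfamily, members past the 4-fold limit in a class, and the 3 largest called changes of the partner lists. Results of 4 members are not reported here, though they enter the counts and sums. Others were named after their values were seen. Poisson and ratio intervals are exact and cover counting error only. Gene positions and filter codons are from GENCODE M21.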

Additional observations from a re-analysis of the deposited data

How the results depend on the processing

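Within either library alone, a value with no test, each of the 116 named results kept its direction. For members the same direction in both libraries was a condition of being named, so only the partner genes could have failed this. The named results (59 genes) gave 1344 values under all alternatives. Of these, 1146 stayed the same, 172 kept direction but lost the call, 23 moved and 3 reversed. In tested alternatives, same means that direction and call were kept. Values within either library alone have no call. They counted as same where they differed from the reported value by no more than the standard deviation of the 2 libraries' values. That limit widens as the libraries differ, so the counts below, which are part of the 1146, do not measure how well the libraries match. In the library labelled male alone 106 stayed the same and 10 moved. In the library labelled female alone 103 stayed the same and 13 moved. The reversed values were Kcna5 (0.09) and Kcnc2 (0.11) in inhibitory against excitatory neurons without Hcrt-high and Pmch-high neurons, and Kcnc2 (0.03) there with cells thinned to 3000 UMIs. The losses were uneven: DESeq2 kept the call of 40 named results and lost that of 75. Cells thinned to 3000 UMIs kept the call of 43 and lost that of 33 without a change of direction.

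DESeq2 called 5, 19, 12 and 6 members, against 34, 43, 36 and 25 in edgeR, for inhibitory against excitatory, Hcrt-high against other excitatory, Pmch-high against other excitatory and Hcrt-high against Pmch-high neurons. Cells thinned to 3000 UMIs gave 13, 20, 10 and 6, from fewer members tested. Among partner genes, with 15 called in the first comparison and 14 in each of the last 2, DESeq2 called 3, 9 and 4 and thinned cells gave 7, 5 and 2. Without peptide neurons the first comparison had 20 members and 6 partner genes called. The cause of these changes was not tested. The library pairs the sums: with no replicate block the first comparison called 17 members and 4 partner genes, and the others 42, 33 and 23 members. Counts stayed within 1.5 times of those reported with DESeq2 size factors, no filter on low counts, doublets kept, the stricter cell filter and the other gates, and without TMM, an alternative chosen after seeing the data. There the median log2 fold change of all genes was −0.27 for Hcrt-high and −0.29 for Pmch-high against other excitatory neurons, with 9 members higher and 34 lower and with 8 higher and 32 lower.

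For cell classes, the stricter cell filter left 11 of 17 higher pairs, and a 2-fold limit gave 210 lower pairs, against 121. At 4000 UMIs per cell the ratio of different Kcn genes was 0.715 for Hcrt-high and 0.776 for Pmch-high over other excitatory neurons and 0.414 for mature oligodendrocyte-like over neuron-like cells, against 0.64, 0.697 and 0.445 at 2000. With 1 residual degree of freedom and 83 and 83 or 85 and 61 peptide cells, depth limits the genes that had few UMIs.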
